A study of Mus musculus with 10 samples.

Results

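Sox2, Atoh1, Pou4f3, Gfi1, Barhl1, Lhx3, Tbx2, Ikzf2 and Gbx2 are transcription factor genes that set or mark the identity of inner ear hair cells (HCs). They were chosen by symbol, and all 9 were found among the 32285 genes of the deposited count matrices. They are described here in inner HCs (IHCs) and outer HCs (OHCs) of the cochlea, in HCs of type I and type II from the vestibular organs, and in the supporting cells (SCs) that surround HCs in both organs. The matrices hold unique molecular identifier (UMI) counts, in which each captured mRNA molecule is counted once.

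All libraries came from wild-type CBA/J mice, labelled as 22 months old and given no treatment. Sensory epithelia of the cochlea or of the vestibular organs were dissected from several mice, both sexes per the study's methods, pooled, digested with collagenase IV and loaded on a droplet-based 3' single-cell platform. Of 5 libraries per organ, replicate 2 repeated replicate 1: their barcodes were shared for 1313 of 1313 and 1633 of 1641 cells, and their counts differed by less than sampling noise, so each pair was counted as 1 sample. The 4 remaining libraries of each organ, numbered 1, 3, 4 and 5, are pools of animals, and p-values measure the spread between these pools. No other 2 libraries shared more than 41 barcodes. Cochlear libraries held 2738036 to 26974948 UMIs and vestibular libraries 4150642 to 24104850, and library 3 of each organ was the deepest. There was no young group, so every comparison below is between organs or cell types at 1 age.

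Atoh1 is the basic helix-loop-helix factor that starts HC differentiation, and Pou4f3, Gfi1, Barhl1 and Lhx3 act after it in HC maturation and survival. Sox2 is the HMG-box factor of the sensory progenitors, known to persist in SCs and type II HCs. Tbx2 and Ikzf2 (Helios) are known as factors of the IHC and the OHC state, respectively, and Gbx2 is a homeobox factor of inner ear morphogenesis.

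Cells were clustered and named from lists of marker genes that held none of the 9 factors, and the 9 were also left out of the genes used for clustering, although genes that vary with them could take part. The names stand for cells alike to a type by these markers. This gave 142 IHCs, 80 OHCs, 1498 type I HCs and 276 type II HCs, with 1135 cochlear and 554 vestibular SCs. HCs with a name were 222 of 7272 cochlear cells and 1774 of 10424 vestibular cells. The libraries held few OHCs: libraries 1, 3, 4 and 5 gave 24, 34, 8 and 14. The markers separated the cochlear types clearly, with the OHC motor gene Slc26a5 in 81.2% of OHCs and 3.52% of IHCs, and the glutamate transporter gene Slc17a8 in 84.5% of IHCs and 7.5% of OHCs. In the vestibule, by share of cells with a UMI, Adam11 separated the types most of their naming markers (91.8% of type I and 5.8% of type II HCs). Calb2 (8.28% and 55.1%) and Spp1 (99.9% and 81.5%) separated them less. Ocm and Vmo1 were also on the type I list. Ocm was found in fewer type I than type II HCs (16.3% and 24.3%), and Vmo1 was rare in both (0.73% and 0.36%). A further 273 vestibular cells with markers of both HCs and SCs and a median of 11337 UMIs were set aside, and 230 vestibular HCs could not be assigned to a type.

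In the GRCm38 annotation, Sox2 lies at chr3:34650405-34652461, Atoh1 at chr6:64729125-64731245 and Tbx2 at chr11:85832551-85841948 on the plus strand. On the minus strand, Ikzf2 lies at chr1:69531214-69687245, Gbx2 at chr1:89927956-89931179, Lhx3 at chr2:26200212-26208289, Barhl1 at chr2:28907679-28916668 and Gfi1 at chr5:107716657-107726036. Sox2 lies within Sox2ot on the same strand, and Gfi1, Lhx3, Gbx2 and Ikzf2 each overlap a noncoding gene on the opposite strand. Ikzf2 also holds the intronic noncoding genes Gm28112 and Gm29112 on its own strand, of which Gm28112 had 7 UMIs in OHCs (22.5 CPM). Whether the counting used strand is not given in the sources used here, so reads of such pairs could have been split between them.

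The RefSeq promoter table (GRCm38.p6) held entries for Sox2, Atoh1, Gfi1, Barhl1, Lhx3 and Gbx2, 6 of the 9. Pou4f3, Tbx2 and Ikzf2 had no entry. The 250 bases before the first annotated start are shown for 3 genes whose levels set a type apart below: Atoh1 at chr6:64728875-64729124 on the plus strand, Barhl1 at chr2:28916669-28916918 on the minus strand and Gbx2 at chr1:89931177-89931426 on the minus strand. Capitals mark CAGCTG, an E-box of the kind that Atoh1 binds.
Atoh1: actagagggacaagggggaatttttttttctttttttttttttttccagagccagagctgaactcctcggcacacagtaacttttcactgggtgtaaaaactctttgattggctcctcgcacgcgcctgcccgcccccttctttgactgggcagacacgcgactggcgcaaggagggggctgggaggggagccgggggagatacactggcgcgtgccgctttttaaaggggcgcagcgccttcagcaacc
Barhl1: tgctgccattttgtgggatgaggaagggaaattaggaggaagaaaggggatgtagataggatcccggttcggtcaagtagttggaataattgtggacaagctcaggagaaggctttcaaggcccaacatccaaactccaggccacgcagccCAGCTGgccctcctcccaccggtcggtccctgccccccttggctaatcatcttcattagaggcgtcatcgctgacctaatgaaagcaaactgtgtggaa
Gbx2: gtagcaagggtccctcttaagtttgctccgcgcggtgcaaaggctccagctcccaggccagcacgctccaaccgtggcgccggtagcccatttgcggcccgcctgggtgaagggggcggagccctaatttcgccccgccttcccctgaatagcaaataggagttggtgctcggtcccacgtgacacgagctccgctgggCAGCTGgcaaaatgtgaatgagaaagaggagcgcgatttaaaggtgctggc
CAGCTG stood 99 bases before the start of Barhl1 and 51 bases before that of Gbx2, and 13% of the 32851 promoters in the table hold it. The shown Atoh1 window held neither it nor any of the other 4 motifs searched on both strands, which were the E-box CAGATG (held by 14.4% of promoters), the homeobox motif TAATTA (4.84%), the Sox motif ATTGTT (9.42%) and the T-box core GGTGTG (16.3%).

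Levels below are counts per 1000000 UMIs (CPM) after summing the cells of a type within a library, given as mean ± SD (n = 4 libraries). Differences are log2 ratios from edgeR's quasi-likelihood test on the summed counts, with p-values adjusted over all genes tested and called at 0.05. Their standard errors are approximate, worked out from the log2 ratio and the F statistic of that test. The plot of levels by cell type sets out all 9 genes in the 6 types.

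**Figure D1:**
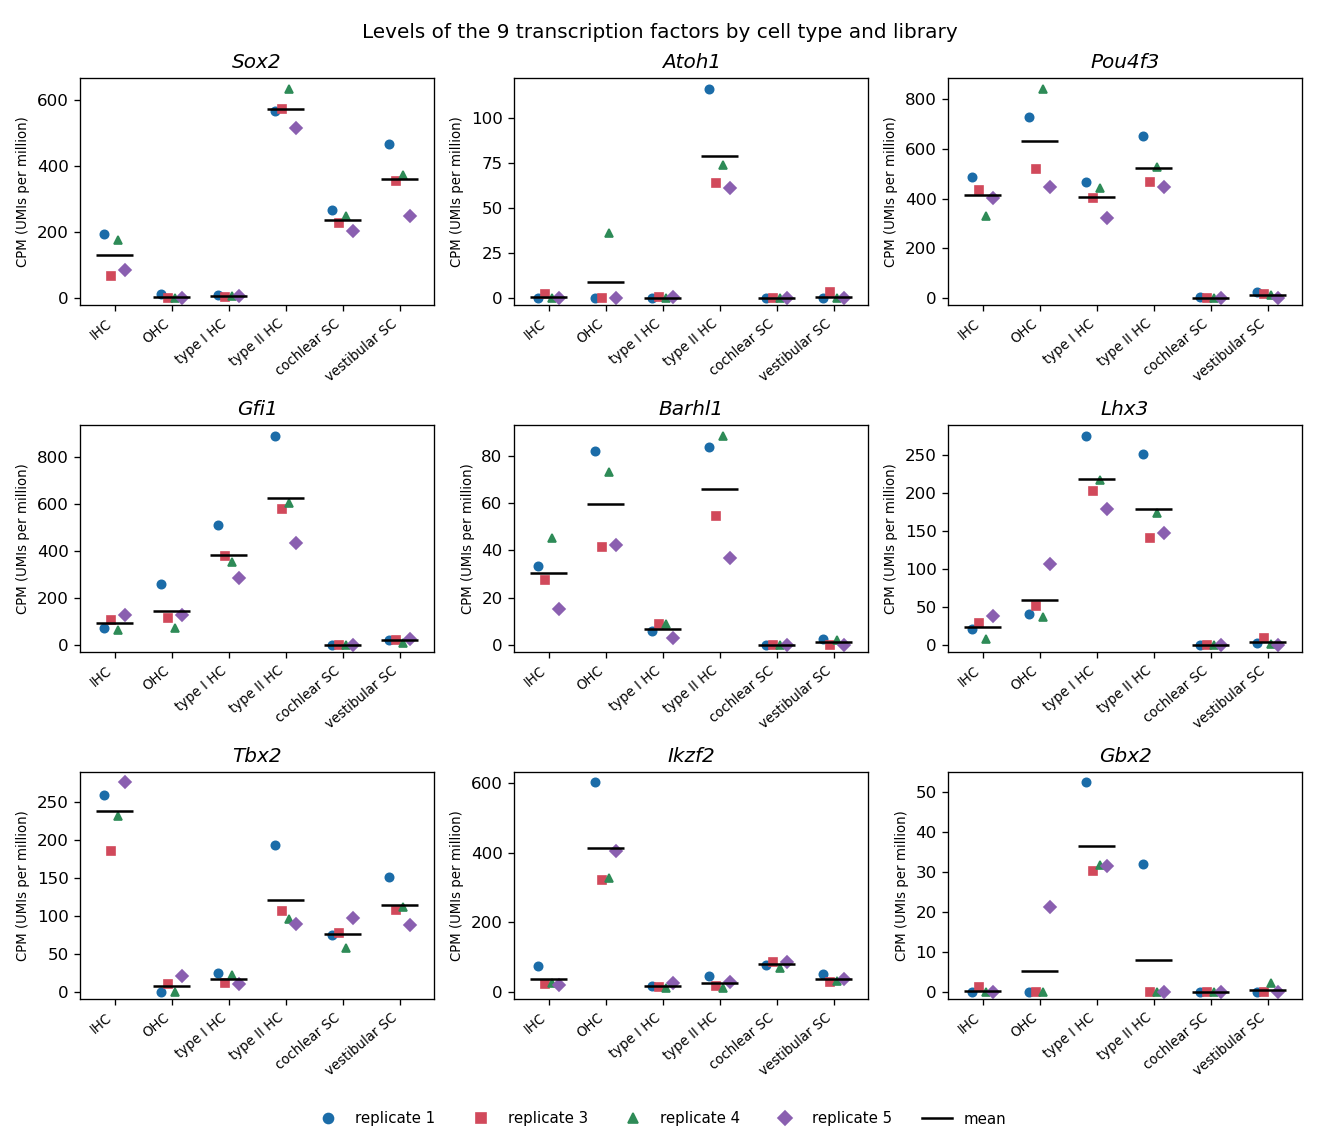
CPM of the 9 transcription factor genes (panels) in 6 cell types (horizontal axis); each point is 1 of the 4 libraries of an organ and the line is their mean. Pou4f3 and Gfi1 were above 60 CPM in every HC library and below 27 CPM in every SC library, whereas Sox2 and Tbx2 were present in both HCs and SCs.

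Pou4f3, the POU-domain factor required for HC survival, was the member shared most evenly among the 4 HC types. Its level in libraries 1, 3, 4 and 5 was 487, 434, 330 and 404 CPM in IHCs, 724, 518, 839 and 445 in OHCs, 465, 400, 443 and 320 in type I HCs and 650, 464, 527 and 447 in type II HCs. Types next to each other in the order of means overlapped. At least 1 UMI of Pou4f3 was found in 85.9% of IHCs, 73.8% of OHCs, 71.3% of type I and 78.6% of type II HCs, at median depths of 10202, 2702, 3932 and 4777 UMIs per cell. After thinning each cell to 1000 UMIs the shares were 26.8%, 33.8%, 30.9% and 40.9%. Cochlear SCs held 4 UMIs in all, or 1.38 CPM. Vestibular SCs held 24.4, 19, 13.4 and 0 CPM, with a UMI in 4.33% of cells, against 1.68% of vestibular macrophage-like cells, which should lack the gene and had a median of 2658 UMIs.

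Gfi1, a zinc finger repressor needed by HCs, was higher in vestibular than in cochlear HCs. IHCs held 75, 106, 64.4 and 128 CPM and OHCs 260, 114, 72.9 and 127, against 509, 377, 355 and 284 in type I HCs and 889, 577, 604 and 435 in type II HCs. Both vestibular types lay above every cochlear library, and they overlapped with each other. Over all cHCs against all vHCs the means were 104 and 428 CPM, a log2 difference of −1.98 ± 0.23 (adjusted p = 6.79e-07).

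Lhx3, a LIM homeobox factor, was likewise higher in vestibular HCs. IHCs held 20.8, 29.8, 7.58 and 37.7 CPM and OHCs 41, 51.8, 36.5 and 106, whereas type I HCs held 275, 202, 217 and 178 and type II HCs 251, 141, 173 and 147. Cochlear and vestibular HCs averaged 29 and 210 CPM and did not overlap (log2 difference −2.76 ± 0.27, adjusted p = 6.13e-08). A UMI was found in 49.5% of type I and 50% of type II HCs, and in 23.9% of IHCs and 13.8% of OHCs.

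Barhl1, a homeobox factor for long-term HC survival, was lowest in type I HCs. Its level was 33.3, 27.3, 45.5 and 15.1 CPM in IHCs, 82, 41.4, 72.9 and 42.4 in OHCs (14 UMIs in all) and 83.7, 54.6, 88.4 and 36.7 in type II HCs. In type I HCs it was 6.17, 9.06, 9.06 and 2.86 CPM, below every library of the other HC types. The cHC mean of 35.2 CPM was above the vHC mean of 18 (log2 difference 0.95 ± 0.3, adjusted p = 0.0163). Without cochlear library 4 (adjusted p = 0.0574), without vestibular library 5 (0.0501) or with cells named one by one (0.102) that difference did not pass.

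Read together, at least 1 UMI of Pou4f3, Gfi1, Barhl1 or Lhx3 was found in 91.5% of IHCs, 81.2% of OHCs, 91.4% of type I and 94.2% of type II HCs, against 0.62% of cochlear and 10.5% of vestibular SCs. Thinned to 1000 UMIs, these shares were 40.1%, 50%, 59.5% and 77.2% in the HC types and 0.352% and 3.97% in the SCs. At least 2 of the 4 genes had a UMI in 1.44% of vestibular SCs and in 0 of the 1135 cochlear SCs. The summed level of 6 HC marker genes was 341 to 466 CPM in vestibular SCs and 185 to 249 CPM in cochlear SCs, against 2354 to 5762 CPM in the HC types, and its part in the SC values of the 4 factors was not tested.

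Among the named HC and SC types, Atoh1 was found almost only in type II HCs. They held 116, 63.7, 73.7 and 61.2 CPM (78.6 ± 25.4), from 100 UMIs. The other types held 2 UMIs (IHCs), 1 (OHCs), 4 (type I HCs), 3 (vestibular SCs) and 0 (cochlear SCs, where a count of 0 allows up to 0.51 CPM). Their means were 0.62, 9.12, 0.49, 0.84 and 0 CPM. OHCs gave only 244275 UMIs of all genes, against 6001588 in type I HCs, so a low level in OHCs is less certain. A UMI of Atoh1 was found in 22.8% of type II HCs (exact 95% interval 18 to 28.2, counting error only) and 0.267% of type I HCs, and in 0 of 387 cochlear and 0 of 358 vestibular macrophage-like cells. Thinned to 1000 UMIs, the type II share was 6.52% (3.91 to 10.1). Atoh1 was also present in the set-aside vestibular cells, which are in none of these types. Its level there is given under the other observations.

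Sox2 marked the same cells more strongly and the SCs as well. Type II HCs held 567, 574, 634 and 514 CPM (572 ± 48.9), above the 469, 355, 374 and 249 of vestibular SCs and the 268, 228, 249 and 205 of cochlear SCs in every library. Type I HCs held 9.26, 3.69, 6.79 and 7.62 CPM and OHCs 1 UMI in all. The share of cells with a UMI was 79% in type II and 1.54% in type I HCs, and 0.517% and 1.12% in cochlear and vestibular macrophage-like cells, so that the type I share was close to this background. Of the 63 type II HCs with a UMI of Atoh1, 56 (88.9%) also had Sox2, against 162 of the other 213 (76.1%). The cells with Atoh1 were deeper, at a median of 5439 against 4482 UMIs. The Sox2 gene overlaps Sox2ot, whose level in these types was 30.7 CPM in type II HCs and 0.658 in type I HCs.

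Type II and type I HCs thus differed in 6 of the 9 factors, 5 higher and 1 lower in type II HCs, where 17.7% of all 7983 genes tested were called (9.63% higher and 8.02% lower). Sox2 (log2 difference 6.49 ± 0.22, adjusted p = 6.4e-16) and Atoh1 (6.45 ± 0.42, adjusted p = 3.78e-11) differed most, followed by Barhl1 (2.95 ± 0.33, adjusted p = 1.6e-07) and Tbx2 (2.74 ± 0.27, adjusted p = 2.21e-08). Named one by one from markers, the cells gave a Sox2 difference of 1.33 (adjusted p = 0.000184). Gfi1 was higher by 0.62 ± 0.19 (adjusted p = 0.0215) but did not pass without library 3 (0.0969), without library 4 (0.0911) or in 1 fit over all types (0.0922), and it was −0.06 with the set-aside cluster kept. Gbx2 was lower (−3.26 ± 0.64, adjusted p = 0.000501), from 5 UMIs of 1 type II cell against 199 UMIs, and DESeq2 gave an adjusted p of 0.343. Pou4f3 (0.27 ± 0.16, adjusted p = 0.303) and Lhx3 (−0.42 ± 0.17, adjusted p = 0.11) did not pass. Type I and type II HCs came from the same libraries, and with the replicate block for this pairing both did, at 0.27 (adjusted p = 0.0346) and −0.42 (0.00442). Ikzf2 did not pass (0.35 ± 0.37, adjusted p = 0.639). Markers of vestibular SCs (8 genes) summed to 329 to 626 CPM in type II HCs, 55.6 to 110 in type I HCs and 7075 to 9157 in vestibular SCs, and their part in the Sox2 level was not tested.

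**Figure D2:**
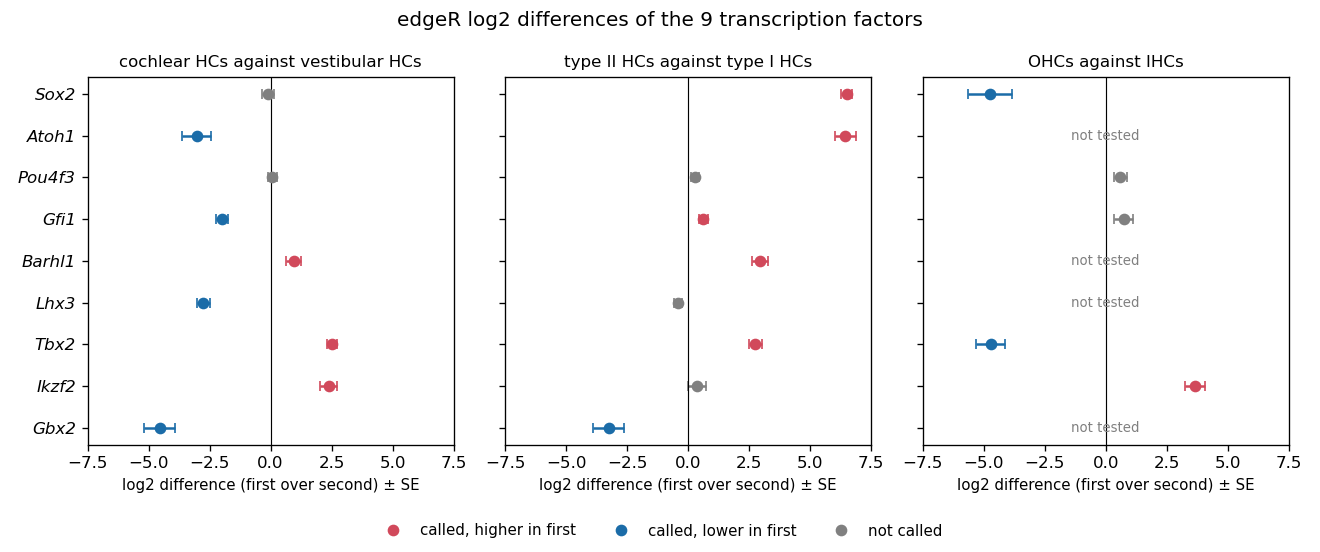
log2 differences from edgeR, with approximate standard errors worked out from its F statistic, for each factor (vertical axis) in 3 comparisons (panels). These are cochlear against vestibular HCs, type II against type I HCs and OHCs against IHCs. Red and blue points passed an adjusted p of 0.05 and grey points did not. Sox2 and Atoh1 were 6.49 and 6.45 higher in type II than in type I HCs, and Tbx2 and Ikzf2 lay on opposite sides of 0 between OHCs and IHCs (−4.71 and 3.65).

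Within the cochlea, Ikzf2 and Tbx2 separated the HC types in opposite directions. Ikzf2, the zinc finger factor Helios of OHC maturation, held 601, 321, 328 and 403 CPM in OHCs (413 ± 131). In IHCs it held 75, 23.6, 26.5 and 18.9 CPM, with a mean of 36 that was 23 without library 1. Tbx2, the T-box factor of the IHC state, held 258, 185, 231 and 275 CPM in IHCs (237 ± 39.4) and 0, 10.4, 0 and 21.2 in OHCs, from 2 UMIs. Neither gene's libraries overlapped between the types.

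OHCs and IHCs had enough counts to test 5 of the 9 factors. Ikzf2 was higher in OHCs (3.65 ± 0.4, adjusted p = 2.9e-07) and Tbx2 lower (−4.71 ± 0.6, adjusted p = 2.35e-06), its 2 against 345 UMIs giving a 26.8-fold ratio with a counting interval of 7.36 to 222. Sox2 was also lower in OHCs (−4.74 ± 0.92, adjusted p = 0.000406), with 1 against 171 UMIs, but did not pass with cells named one by one (−0.86, adjusted p = 0.61). The 3 called, 1 higher and 2 lower, compare with 19.7% of 3104 genes (9.44% higher and 10.2% lower). Pou4f3 (0.6 ± 0.28, adjusted p = 0.145) and Gfi1 (0.74 ± 0.38, adjusted p = 0.203) did not pass. Atoh1, Barhl1, Lhx3 and Gbx2 had too few counts to be tested. A UMI of Ikzf2 was found in 61.2% of OHCs and 18.3% of IHCs, and in 32.5% and 2.11% after thinning. Macrophage-like cells of the cochlea had 4.13%, and 3.07% after thinning, so the thinned IHC share was no higher than background.

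The Sox2 counts of IHCs came mostly from 1 of 3 subclusters. IHC libraries held 196, 67.1, 178 and 86.8 CPM. The subcluster of 68 cells, with a median of 15696 UMIs per cell, gave 158 of the 171 UMIs (151 CPM), and the subclusters of 45 and 29 cells gave 13 (27.8 CPM) and 0. The first had at least 5 cells in all 4 libraries, the second only in libraries 3 and 4 and the third only in libraries 3 and 5. In libraries 3 and 4, Sox2 was 118 and 225 CPM in the first and 6.07 and 65.4 CPM in the second. The 10 cochlear SC marker genes moved with it: they summed to 932, 89.8 and 31.7 CPM in the 3 subclusters and to 1513 to 1712 CPM in cochlear SCs, and 9 of the 10 had a UMI in the first. Ikzf2 also followed this order, at 46, 2.14 and 0 CPM. Tbx2 stood at 228, 216 and 95.2 CPM and was present in all 3. Whether SC RNA or SCs caught with IHCs contributed to the Sox2 and Ikzf2 levels of IHCs was not tested. Without the first subcluster, an alternative chosen after seeing the data, Sox2 had too few counts to be tested between OHCs and IHCs, and the Ikzf2 difference was 7.21 (adjusted p = 7.4e-10) and that of Tbx2 −4.37 (adjusted p = 3.86e-06).

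**Figure D3:**
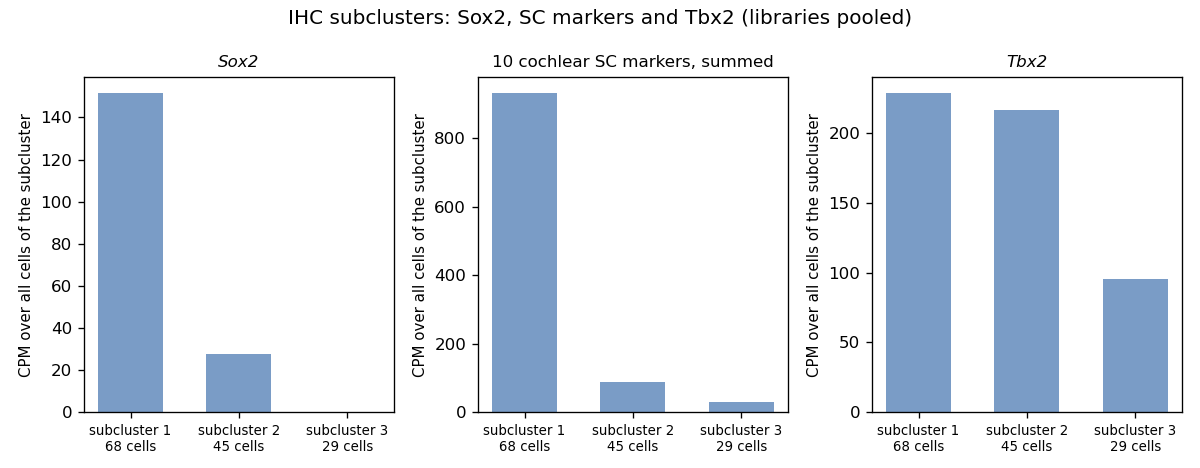
CPM (bars) in the 3 IHC subclusters of Sox2, of the sum of 10 cochlear SC marker genes and of Tbx2, with the cells of all libraries summed, so that there is no error bar. Sox2 and the SC markers were both highest in the first subcluster (Sox2 at 151, 27.8 and 0 CPM), whereas Tbx2 was 228, 216 and 95.2 CPM.

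Tbx2 was not restricted to IHCs. Type II HCs held 193, 106, 95.8 and 88.8 CPM, vestibular SCs 152, 107, 112 and 88.1, cochlear SCs 74.5, 77, 58 and 96.8, and type I HCs 24.7, 11.7, 22.6 and 10.5. The IHC and type II ranges overlapped, and type I HCs lay below every SC library. Melanocyte-like cells of the vestibule held 272 ± 53 CPM. Ikzf2 stood next highest after OHCs in cochlear SCs, at 77.5, 86.5, 70 and 85.4 CPM, followed by vestibular SCs at 51.5, 28, 31.4 and 36.3. T-cell-like cells of the vestibule, a lineage in which the gene is well known, held 141 ± 55.2 CPM (n = 3).

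Gbx2 was found in type I HCs, at 52.5, 30.2, 31.7 and 31.5 CPM (199 UMIs), with a UMI in 9.75% of cells (8.29 to 11.4). IHCs, OHCs and vestibular SCs held 1 UMI each (means of 0.31, 5.3 and 0.56 CPM, in OHCs out of only 244275 UMIs) and cochlear SCs 0. Its counts were concentrated in 1 type I subcluster of 266 cells, the one with the most Ocm, which encodes the calcium buffer oncomodulin and in vestibular organs is known from the central zones. Gbx2 there was 221, 141, 155 and 115 CPM, against 7.81, 8.05, 7.24 and 6.2 in the other 1232 type I HCs, and a UMI was found in 42.9% and 2.6% of cells at similar depths (medians of 3824 and 3964 UMIs). Ocm itself averaged 4164 and 88.9 CPM. Counted the other way, 95 of the 146 type I HCs with Gbx2 (65.1%) had a UMI of Ocm, against 149 of the 1352 without (11%).

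The same subcluster was also higher in Tbx2 (47.2 ± 26.2 against 10.5 ± 5.68 CPM) and lower in Lhx3 (140 ± 24.8 against 237 ± 47), and neither gene's libraries overlapped. Sox2 was low in both but higher in the subcluster without overlap (15.3 ± 9.6 against 4.71 ± 1.9 CPM). A UMI of it was found in 3.38% and 1.14% of cells. Ikzf2 averaged 31 ± 13.5 against 13.3 ± 3.52 CPM. Pou4f3 (431 and 400 CPM) and Gfi1 (410 and 374) were near each other. These values are a description, since the subclusters were drawn on the same cells. The Gbx2 gene overlaps D130058E05Rik on the opposite strand, which averaged 19.6 CPM in type I HCs and 1.99 CPM in those of type II.

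**Figure D4:**
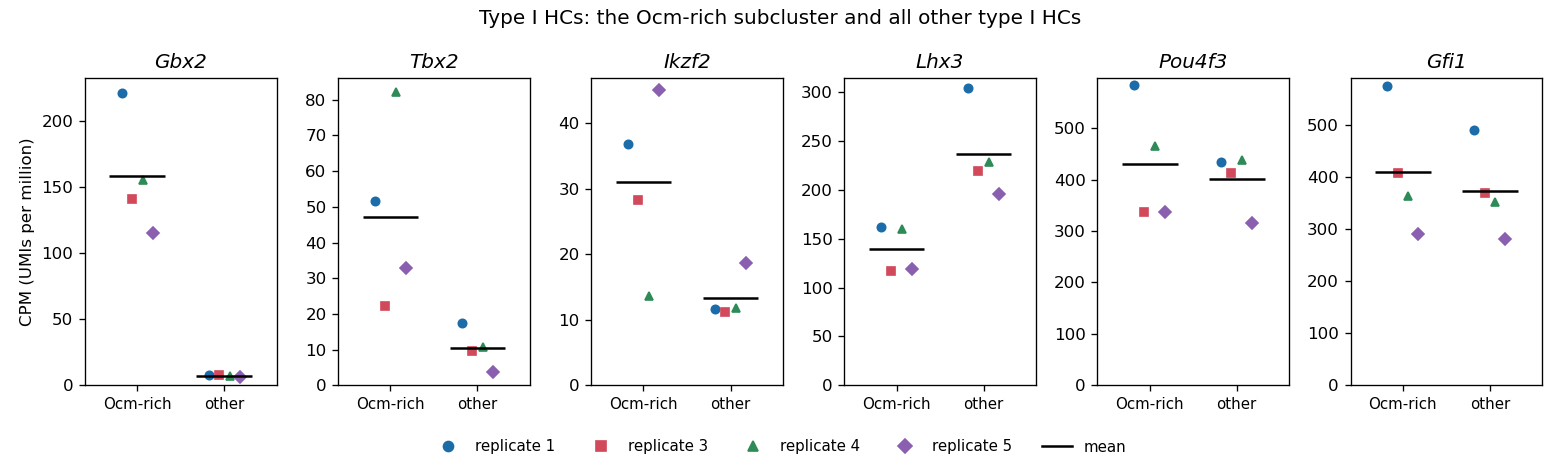
CPM of Gbx2, Tbx2, Ikzf2, Lhx3, Pou4f3 and Gfi1 (panels) in the Ocm-rich type I subcluster (266 cells) and in all other type I HCs (1232 cells); each point is 1 of 4 libraries and the line is their mean. Gbx2 was 115 CPM or more in each library of the Ocm-rich subcluster and 8.05 CPM or less in the other cells, and Lhx3 stood lower in the subcluster without overlap.

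Between the organs, 7 of the 9 factors differed over all HCs, 3 higher in the cochlea and 4 higher in the vestibule, where 38% of 8918 genes were called (17.4% higher and 20.6% lower). Besides Gfi1, Lhx3 and Barhl1, Tbx2 (203 and 37.6 CPM, log2 difference 2.51 ± 0.22, adjusted p = 1.04e-08) and Ikzf2 (96.3 and 18.6 CPM, 2.38 ± 0.35, adjusted p = 1.35e-05) were higher in cHCs. Atoh1 was lower (3 against 104 UMIs, −3.03 ± 0.6, adjusted p = 0.000348), with a ratio of 8.5 and a counting interval of 2.83 to 41.9. Gbx2 was lower too (2 against 204 UMIs, −4.55 ± 0.62, adjusted p = 4.16e-06). Pou4f3 did not pass (0.08 ± 0.19, adjusted p = 0.8). Sox2 did not pass either (−0.10 ± 0.25, adjusted p = 0.795), but without the IHC subcluster with SC genes it was lower in cHCs (−2.54, adjusted p = 1.93e-05), and with the set-aside cluster kept it was −0.88 (adjusted p = 0.0188). The sums follow the mix of types recovered. IHCs gave 1573806 UMIs and OHCs 244275, and type I HCs gave 6001588 and type II HCs 1412162. By type, the mean of Barhl1 was highest in type II HCs (65.9 CPM). That of Tbx2 was lower in OHCs (7.89 CPM) than in type I HCs (17.4 CPM). Organ was also the unit of dissection and library, so the organ's cells and its preparation cannot be told apart here.

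HCs and SCs of the same libraries differed in most factors. In the vestibule, 8 of the 9 could be tested and all 8 were called, 5 higher and 3 lower in HCs, where 58.6% of 9266 genes were called (29.3% in each direction). Lhx3 (4.97 ± 0.33, adjusted p = 1.23e-12), Pou4f3 (4.48 ± 0.27, adjusted p = 2.12e-13), Gfi1 (4.19 ± 0.26, adjusted p = 2.34e-13), Gbx2 (5.34 ± 0.71, adjusted p = 3.58e-07) and Atoh1 (2.94 ± 0.63, adjusted p = 0.000238) were higher. Sox2 (−1.85 ± 0.17, adjusted p = 9.41e-10), Tbx2 (−1.90 ± 0.21, adjusted p = 1.18e-08) and Ikzf2 (−1.18 ± 0.29, adjusted p = 0.000998) were lower. Type I HCs made up most of the vHCs here, and type II HCs alone held more Sox2 than SCs in every library. With cells named one by one, the Sox2 difference was −0.13 (adjusted p = 0.663).

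In the cochlea, 5 of 6 factors tested were called, 4 higher and 1 lower in HCs, where 40.5% of 8207 genes were called (18.9% higher and 21.6% lower). Pou4f3 (8.81 ± 0.51, adjusted p = 4.82e-09) and Gfi1 (7.59 ± 0.47, adjusted p = 8.14e-09) were higher. Barhl1 had 60 UMIs in HCs and 0 in SCs and was at least 64.7-fold higher against a floor of 3 UMIs over the group (adjusted p = 1.75e-06). Tbx2 was higher in cHCs (203 against 76.6 CPM, 1.19 ± 0.22, adjusted p = 0.000479), but not without the IHC subcluster with SC genes (0.68, adjusted p = 0.0757). By type, it averaged 237 CPM in IHCs and 7.89 CPM in OHCs, below the SCs. Sox2 was lower (−1.32 ± 0.28, adjusted p = 0.00157), and −3.65 without that subcluster (adjusted p = 1.74e-06). Ikzf2 did not pass (0.01 ± 0.34, adjusted p = 0.986), where cHCs sum OHCs and IHCs, and it was −0.56 without cochlear library 1 (adjusted p = 0.0424) and 0.98 without the subcluster (adjusted p = 0.0817). Lhx3, with 55 against 1 UMIs, was not tested.

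The HC to SC difference itself was compared between organs in 1 fit of 10326 genes, 23.2% of which were called. Tbx2 differed most clearly, at 1.21 in the cochlea and −1.75 in the vestibule, a gap of 2.96 ± 0.31 (adjusted p = 3.6e-08). The cochlear side of this did not hold in every alternative: Tbx2 was −0.29 (adjusted p = 0.656) with a mitochondrial limit of 10%, beside the 0.68 given above without the IHC subcluster. The HC sums also mix types. In the cochlea, Tbx2 averaged 237 CPM in IHCs, 7.89 in OHCs and 76.6 in SCs. In the vestibule it averaged 121 CPM in type II HCs, 17.4 in type I HCs and 115 in SCs. The part of this mix in the gap was not tested. The gaps of Pou4f3 (4.26 ± 0.72, adjusted p = 5.98e-05) and Gfi1 (3.35 ± 0.70, adjusted p = 0.000729) rested on 4 and 2 UMIs in cochlear SCs. Those of Sox2, Atoh1, Barhl1, Lhx3, Ikzf2 and Gbx2 did not pass.

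Between SCs of the 2 organs, 1 of 3 factors tested was called, where 29.2% of 8105 genes were called (13.2% higher and 16% lower). Ikzf2 was higher in cochlear SCs (1.30 ± 0.24, adjusted p = 0.000225), but not with cells named one by one (0.57, adjusted p = 0.133) or with a stricter mitochondrial limit (0.41, adjusted p = 0.281). Sox2 (−0.50 ± 0.2, adjusted p = 0.0637) and Tbx2 (−0.47 ± 0.21, adjusted p = 0.113) did not pass.

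Cochlear SCs were not uniform. The largest cluster, 694 cells led by Slitrk6, Dgkb and Lfng, held Tbx2 at 226, 172, 155 and 196 CPM. The cluster of 309 cells led by Tnnt2, Vldlr and Hey2 held 3.9 ± 1.3 CPM, and the cluster of 132 cells led by Tectb and Fgfr3 held 0. Sox2 was present in all 3, at 340 ± 85.6, 184 ± 11.8 and 119 ± 68.2 CPM, and so was Ikzf2, at 98 ± 6.2, 58.9 ± 11.4 and 126 ± 26.7. In the vestibule the clusters of 456 and 98 cells held Sox2 at 372 and 305 CPM and Tbx2 at 107 and 162 CPM, and the smaller one was led by Zpld1.

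**Figure D5:**
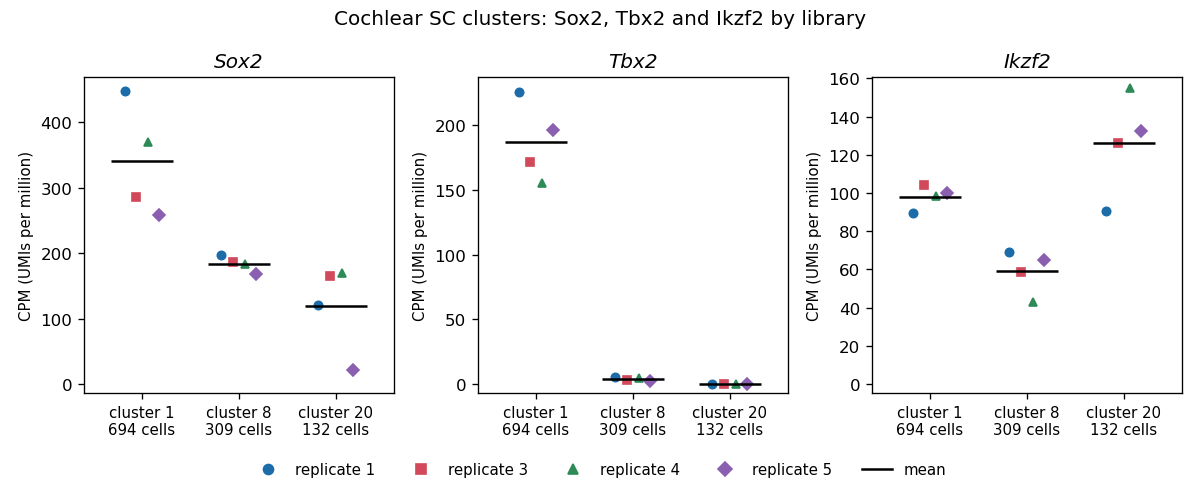
CPM of Sox2, Tbx2 and Ikzf2 (panels) in the 3 cochlear SC clusters; each point is 1 of 4 libraries and the line is their mean. Tbx2 was 187 ± 30.8 CPM in the largest cochlear SC cluster and 3.9 ± 1.3 and 0 CPM in the other 2, while Sox2 was found in all 3 clusters.

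Related factors were read from 3 lists: 16 paralogs, 9 partners and cofactors, and 39 other inner ear transcription factors, of which Prox1, Sox10 and Esrrb were naming markers and are not counted. Between type II and type I HCs, 2 paralogs were higher and 1 lower of 4 tested, 2 partners were higher of 9, and 9 other factors were higher and 4 lower of 20. Medians were 0.46, 0.31 and 0.52 against −0.01 over all genes, of which 17.7% were called. Sox21, the SoxB relative of Sox2, was higher in type II HCs (63.7 against 3.16 CPM, 4.07 ± 0.33, adjusted p = 9.74e-10). Pou4f2, the relative of Pou4f3, was lower (20.1 against 53.1 CPM, −1.45 ± 0.3, adjusted p = 0.00085). Id2 and Id3, inhibitors of basic helix-loop-helix factors such as Atoh1, were lower in type II HCs, by 2.49 and 2.17 on the log2 scale. Between OHCs and IHCs, the LIM homeobox gene Isl1 was higher in OHCs (456 against 78.5 CPM, 2.57 ± 0.31, adjusted p = 1.38e-06), the only partner called of 3, the 1 paralog tested did not pass, and 8 of 13 other factors were lower and none higher, against 19.7% of all genes called in either direction. The 10 cochlear SC markers summed to a mean of 748 CPM in these IHCs and 82.3 CPM in OHCs, and their part in these counts was not tested. Among the 8, the Notch target Hes1 (0 against 250 UMIs, at least 12.9-fold lower) and Casz1 (0 against 136 UMIs, at least 7.04-fold lower) were not found in OHCs.

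Between the organs, 1 paralog was higher and 2 lower in cHCs of 4 tested, and 2 partners were higher and 1 lower of 9. Of the other factors, 12 were higher and 9 lower of 24. Medians were −1.10, 0.39 and 0.61, against −0.03 over all genes, of which 38% were called. Rorb, a nuclear receptor gene, had 3482 UMIs in cHCs and 0 in vHCs (at least 4733-fold higher). Gata3, a zinc finger factor of the cochlea, had 1169 against 2, and Meis2, a homeobox factor, 7 against 2705. Rorb and Gata3 were higher and Meis2 lower in cochlear SCs as well (log2 differences 5.21, 7.15 and −8.31). In HCs against SCs of the vestibule, 1 paralog was higher and 3 lower of 5, and 2 partners higher and 5 lower of 9. Of the other factors, 8 were higher and 13 lower of 26, where 58.6% of all genes were called. In the cochlea these counts were 1 and 1 of 2, 1 and 1 of 9, and 5 and 13 of 22. There 40.5% of all genes were called. Between cochlear and vestibular SCs, 3 paralogs were lower of 4, and 1 partner was higher and 1 lower of 9. Of the other factors, 12 were higher and 5 lower of 25, where 29.2% of all genes were called. The SC factor gene Sox9 was lower in vHCs (13.4 against 573 CPM, −5.58 ± 0.23, adjusted p = 1.95e-16). Hey1 was lower in cHCs (8.75 against 72.1 CPM, −3.31 ± 0.37, adjusted p = 3.12e-06). Since these genes could take part in the clustering, the counts between cell types describe the clusters.

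The genes whose levels over the 24 sums of type and library were most like each factor were found by Pearson's r of log2(CPM + 1) among 11694 genes. These r values are descriptions, as the sums share libraries and depth. Sox21 (0.94) came first for Sox2, Grk1 (0.93) for Atoh1 and Rbm24 (0.99) for Pou4f3. Wbp1 (0.94) was nearest to Barhl1, Ccdc68 (0.97) to Lhx3 and Ppp2r2b (0.97) to Tbx2. Tmem229a (0.88) and Isl1 (0.87) were among the 3 nearest to Ikzf2. Gm32742, Kcp and Cpe (each 0.97) were nearest to Gfi1, and an entry with the symbol C730027H18Rik (0.88) to Gbx2. Among the members themselves, Gfi1 and Lhx3 (0.93), Pou4f3 and Lhx3 (0.90), Pou4f3 and Gfi1 (0.89) and Pou4f3 and Barhl1 (0.89) were the closest, Sox2 and Tbx2 stood at 0.76, and Tbx2 and Ikzf2 ran opposite (−0.55).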

How the data were processed

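The deposited files hold UMI counts per gene and cell barcode, which the authors made with Cell Ranger (per the file headers, version 5.0.1 in replicates 1 and 2, otherwise 6.1.2, on mm10 per the labels). Barcodes under 200 genes or 1000 UMIs, or from 25% mitochondrial UMIs upwards, were removed. The remaining cells were clustered per organ in Seurat 5.3.0 (R 4.3.3) on 2000 variable genes without the 9 factors. A cluster was named from at least 3 markers found in at least 25% of its cells. Each had to be higher there than in the other cells by a log2 fold of at least 1. Classes other than HCs and SCs also needed a marker among the 10 leading genes. HC subclusters took the type whose markers had the higher mean score. No doublet caller was run. Clusters with at least 3 such markers of HCs and at least 3 of SCs were set aside, which occurred only in the vestibule. Mixtures of other classes were not removed by this rule. The naming differs from that of the study, which can move levels between types. Counts were summed per type and library and tested in edgeR 4.0.16 (TMM factors, quasi-likelihood test, two-sided, Benjamini-Hochberg adjustment over all genes tested, 0.05), with DESeq2 1.42.0 as an alternative. The code was tested on simulated data. Genes were named by a rule: the 9 members, up to 3 most similar genes each, and up to 3 list genes per comparison and direction, with 1 similar gene not reported here. The members and lists were chosen with earlier results of these data known. Exact intervals and limits for a count of 0 (3 UMIs) cover counting error only. Types within an organ come from the same libraries: deviations of same-numbered sums correlated at 0.29, 0.19, 0.26 and 0.24 for type I and type II HCs, and cochlear and vestibular libraries share only numbers. Sequences and positions came from RefSeq and GENCODE tables on GRCm38. Alternatives included other resolutions, normalizations, filters, cell naming by marker per cell, a mitochondrial limit of 10% and each library left out.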

Additional observations from a re-analysis of the deposited data

Results flagged for a closer look

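In 51 groups of 4 libraries in which a factor was found, the library furthest from the others was examined with Dixon's criterion. Of these, 12 groups passed. Chance alone passes about 1 of 20 groups of normally distributed values. A group with only 1 library above 0 always passes, so the 12 cannot be set against that rate. For 3 abundant levels this was library 1: Ikzf2 in IHCs at 75 CPM, Tbx2 in type II HCs at 193 CPM and Gbx2 in type I HCs at 52.5 CPM. The others rest on a few UMIs in 1 library with the remaining libraries at 0: Atoh1 in IHCs (2.49 CPM), OHCs (36.5 CPM) and vestibular SCs (3.36 CPM), Gbx2 in IHCs (1.24 CPM), OHCs (21.2 CPM), type II HCs (32.2 CPM, from 1 cell) and vestibular SCs (2.24 CPM), Sox2 in OHCs (13.7 CPM) and Lhx3 in cochlear SCs (0.316 CPM).

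The difference between HCs and SCs itself differed between the organs for 3 factors by an interaction test in edgeR. The cochlear minus vestibular gap was 4.26 for Pou4f3, 3.35 for Gfi1 and 2.96 for Tbx2 on the log2 scale. For Tbx2 the direction was opposite, 1.21 in the cochlea and −1.75 in the vestibule, although the separate cochlear comparison gave −0.29 with a mitochondrial limit of 10% and 0.68 (adjusted p = 0.0757) without the IHC subcluster with SC genes. The HC sums mix types. By mean Tbx2, OHCs and type I HCs lay below the SCs of their organ, and IHCs and type II HCs did not.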

How the results depend on the processing

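Over all alternatives, 656 values of a factor in a comparison kept direction and call, 13 lost the call, 13 gained it and 15 changed direction. Only factors still tested under an alternative are counted, so a called factor with too few counts there is not among those lost. Sox2 and Tbx2 between OHCs and IHCs with a mitochondrial limit of 10% were such cases. Some alternatives left a comparison unchanged, such as resolution 0.5 for OHCs and IHCs, and their values count as kept. Of the levels of each factor in each type under each alternative, 561 stayed within 1 SD and 33 moved. With a mitochondrial limit of 10%, which left 0, 11, 3 and 14 IHCs, the factors called were 4 in place of 7 between the organs' HCs, 1 in place of 3 between OHCs and IHCs, and 3 in place of 5 between cochlear HCs and SCs, where Tbx2 was −0.29. Between the organs' SCs, where 1 was called, naming cell by cell gave 0, no filter 4, DESeq2 2, the replicate block 3 and 1 fit over all types 5, and Sox2 was 0.054 cell by cell and 0.30 with the 10% limit. In the replicate block, Sox2 (−0.48, adjusted p = 0.0077) and Tbx2 (−0.50, adjusted p = 0.0286) passed there. Organ libraries share only numbers, although every sum correlated best with its own number (r from 0.05 to 0.19 for HCs and 0.33, 0.18, 0.23 and 0.07 for SCs), and the replicate block changed no other call than these and those named beside the results.

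Leaving out 1 library gave 5 to 7 factors called between the organs' HCs, 5 to 7 between type II and type I HCs, 3 between OHCs and IHCs, 7 to 9 and 4 to 6 between HCs and SCs of the vestibule and cochlea, and 1 to 4 between SCs. Directions turned near 0 for Pou4f3 between the organs' HCs without cochlear library 1 or vestibular library 5 (range −0.016 to 0.16), and for Sox2 without cochlear library 3 or 5 (range −0.33 to 0.16). Between type II and type I HCs, cell-by-cell naming gave Pou4f3 −0.0029 and Gfi1 −0.023, and keeping the set-aside cluster gave −0.11 and −0.062. Ikzf2 between cochlear HCs and SCs was −0.023 with the factors among the variable genes, −0.011 at resolution 2, −0.14 in the replicate block and −0.56 to 0.32 with 1 library left out, the lowest without library 1. Counts of all genes called moved by over 1.5 times in 5 comparisons. The genes tested changed too, so the counts are not shares. Between the organs' HCs, 3393 became 1329 with the 10% limit. Between type II and type I HCs, 1409 became 530 cell by cell, 2723 with the cluster kept and 848 without library 3. Between OHCs and IHCs, 611 of 3104 tested became 288 of 3419 cell by cell and 140 of 582 with the 10% limit. Unfiltered it was 1083 of 14936, and in 1 fit 1357 of 8639. Between cochlear HCs and SCs, 3323 of 8207 became 1996 of 6187 cell by cell. It was 1862 of 5160 with the limit and 1942 of 6778 without library 3. Between the organs' SCs, 2369 of 8105 became 1315 of 6698 cell by cell and 3599 of 17657 unfiltered. The 80 OHCs limit what could be detected there. The causes were not tested.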

Other observations

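The 273 vestibular cells set aside for markers of both HCs and SCs held Sox2 at 383 CPM, Pou4f3 at 334, Gfi1 at 290, Tbx2 at 108, Atoh1 at 22.7 and Gbx2 at 16.1. The 230 vestibular HCs that could not be assigned to a type held Sox2 at 109 ± 60.4 CPM, Gfi1 at 358, Pou4f3 at 320, Lhx3 at 129 and Gbx2 at 17.8.

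Type II HCs fell into subclusters of 216 and 60 cells. The smaller had a UMI of Ocm in 62% of cells, and Gbx2 was at 0 there. Sox2 was 519 and 640 CPM, Atoh1 77.5 and 76.2, Barhl1 56.9 and 93.3 and Tbx2 129 and 95.5 CPM in the larger and the smaller one.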
